A study of Homo sapiens with 12 samples.

Results

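The nuclear genes for the proteins of the mitochondrial ribosome were followed across H1299 lung carcinoma cells and macrophage-like THP-1 cells. They were taken by symbol: MRPL or MRPS, a number and at most 1 further letter. This gave 78 of the 20307 genes in the table, 49 with an MRPL and 29 with an MRPS symbol. All 78 had enough reads to be tested in every comparison, and the lowest read count of any of them in any library was 65.

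The mitochondrial ribosome, or mitoribosome, translates the few proteins that mitochondrial DNA encodes, all of them core subunits of the respiratory chain and of ATP synthase. Its ribosomal RNAs come from mitochondrial DNA, while every protein of it is encoded in the nucleus, made in the cytosol and imported. Part of these proteins have bacterial homologues, and the others were added in mitochondria. MRPL proteins belong to the large subunit, which forms peptide bonds, and MRPS proteins mostly to the small subunit, which reads the mRNA. A few symbols mislead: MRPS30 and MRPS18A sit in the large subunit, and MRPS36 is a component of the 2-oxoglutarate dehydrogenase complex rather than of the ribosome. By place there were thus 51 large-subunit and 26 small-subunit genes, with MRPS36 kept apart.

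Total RNA was profiled in 12 libraries, in 4 groups of 3. The H1299 line comes from a lung carcinoma that is not of the small-cell type, and its groups carry the genotype labels WT, called labelled control here, and DCBLD2 overexpression. THP-1 is a monocytic leukaemia line with a WT genotype label that takes on macrophage features under the phorbol ester PMA. Both THP-1 groups had PMA for 24 h and were then kept for 48 h with H1299 control or H1299 DCBLD2 cells. Contact between the cells is uncertain, because co-culture stands in the design and supernatant in the labels. Neither an empty construct for the control nor the number of clones is named. Separate cultures are not mentioned either, so the spread behind each p-value is that of these samples and may be technical. DCBLD2 itself went against the H1299 labels, with a mean of 98.4 TPM ± 6.03 (SD, n = 3) for labelled DCBLD2 against 197 ± 49.4 TPM for labelled control (log2 fold change -1.27 ± 0.17, SE; adjusted p = 0.00284, edgeR's quasi-likelihood test). Every direction below is therefore labelled DCBLD2 against labelled control. TPM, a transcript's share of all transcripts scaled to a fixed total, allows for gene length.

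Depth ran from 14578887 to 23388187 estimated reads per H1299 library and from 18606739 to 26787853 per THP-1 library. Of 12 myeloid markers, 12 had a mean of at least 1 TPM in both THP-1 groups. In H1299, 2 reached 1 TPM in labelled control and 1 in labelled DCBLD2, and PTPRC was listed at 0 in both. The summed myeloid markers stood at 139 to 142 TPM in H1299 labelled control and at 199 to 202 TPM in H1299 labelled DCBLD2. Of 12 carcinoma markers, 10 reached 1 TPM in both H1299 groups, 7 in THP-1 labelled control and 9 in THP-1 labelled DCBLD2, where KRT19 was listed at 0 in both. The summed carcinoma markers stood at 222 to 236 TPM in THP-1 labelled control and at 177 to 190 TPM in labelled DCBLD2; the part of carried-over H1299 RNA in the results was not tested. Beyond counting noise, replicates of a group varied by 13.3% in H1299 and by 1.96% in THP-1 (coefficient of variation), so far smaller differences pass a test in THP-1. For 34 of the 78 genes, exon bases are shared with another coding gene of the table, and 29 share them with a gene on the opposite strand. Whether the counting used strand is not given in the sources used here, and counts of those genes carry that uncertainty.

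The median of the 78 genes was 92.3 TPM in H1299 labelled control, 100 TPM in H1299 labelled DCBLD2, 43.0 TPM in THP-1 labelled control and 50.5 TPM in THP-1 labelled DCBLD2. All genes of the table had a median of 3.35 to 4.37 TPM in the same groups. Although every mitoribosome holds these proteins in fixed proportions, their mRNA levels were spread 29.1-fold from lowest to highest in H1299 labelled control and 78.3-fold in THP-1 labelled control. By the mean over all 12 libraries the order at the top was MRPS6 (265 TPM), MRPL51 (232), MRPL37 (202), MRPL41 (197), MRPL12 (185) and MRPS24 (180). At the bottom were MRPL1 (11.8 TPM), MRPL50 (14.1), MRPS17 (14.8), MRPS31 (14.9), MRPL46 (21.7) and MRPL57 (22.1). In THP-1 labelled control MRPS6 stood at 522 ± 16.4 TPM (SD, n = 3), and MRPL37, next in order there, at 185 ± 1.56 TPM (SD, n = 3).

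Comparing the unlike starting points, THP-1 labelled control against H1299 labelled control, 62 of the 78 genes were lower in THP-1 (79.5%, where 43.6% of all 14244 genes tested were lower) and 6 were higher (7.69%, against 42.3%). The median log2 difference was -0.95, beside -0.03 over all genes tested. Cell line, PMA and the time with H1299 cells cannot be told apart in this comparison. Relative to all genes, the median of the 78 was -0.93, a value that a change of scaling leaves as it is by construction. With library totals in place of TMM scaling the median of all genes moved by -0.43, and 4 of the 78 genes were higher and 72 lower. Under that scaling 38.1% of all calls were higher, where TMM gave 49.2%.

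MRPL51, a large-subunit protein added in mitochondria, differed most. It had 449, 509 and 462 TPM in H1299 labelled control and 39.2, 41.3 and 38.5 TPM in THP-1 labelled control, a log2 difference of -3.24 ± 0.09 (SE; adjusted p = 7.66e-14, edgeR's quasi-likelihood test). The groups were far apart, and MRPL51 went from the most abundant of the 78 in H1299 to a place below the THP-1 median. The small-subunit genes MRPS18B (-2.67), MRPS12 (-2.58), MRPS33 (-2.49) and MRPS9 (-2.12) and the large-subunit gene MRPL40 (-1.98) followed as log2 differences. MRPS12, whose bacterial homologue forms part of the decoding centre, stood at 262 TPM ± 34.4 (SD, n = 3) in H1299 and 36.4 TPM ± 2.06 (SD, n = 3) in THP-1.

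Of the genes that were higher in THP-1, MRPS6 was set apart from the rest. Its libraries held 90.7, 100 and 86.2 TPM in H1299 labelled control and 537, 524 and 505 TPM in THP-1 labelled control, a log2 difference of 2.77 ± 0.09 (SE; adjusted p = 4.29e-13, edgeR's quasi-likelihood test). MRPS6 alone thus made up 33.6 to 35.4% of the summed small-subunit TPM in THP-1 labelled control and 3.11 to 3.68% in H1299 labelled control. Part of its exon bases lie, on the same strand of chromosome 21, within SLC5A3, a myo-inositol transporter gene, whose level was 40.9 TPM ± 0.973 (SD, n = 3) in THP-1 labelled control and 3.03 TPM ± 1.15 (SD, n = 3) in H1299 labelled control. How reads were divided between the 2 genes was not tested. The other 5 higher genes were MRPL55 (log2 difference 1.28), MRPS10 (1.0), MRPL44 (0.63), MRPL54 (0.58) and MRPL52 (0.36). With library totals MRPL54 was at 0.15 and not called (adjusted p = 0.32, edgeR's quasi-likelihood test), and MRPL52 was at -0.06.

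**Figure D1:**
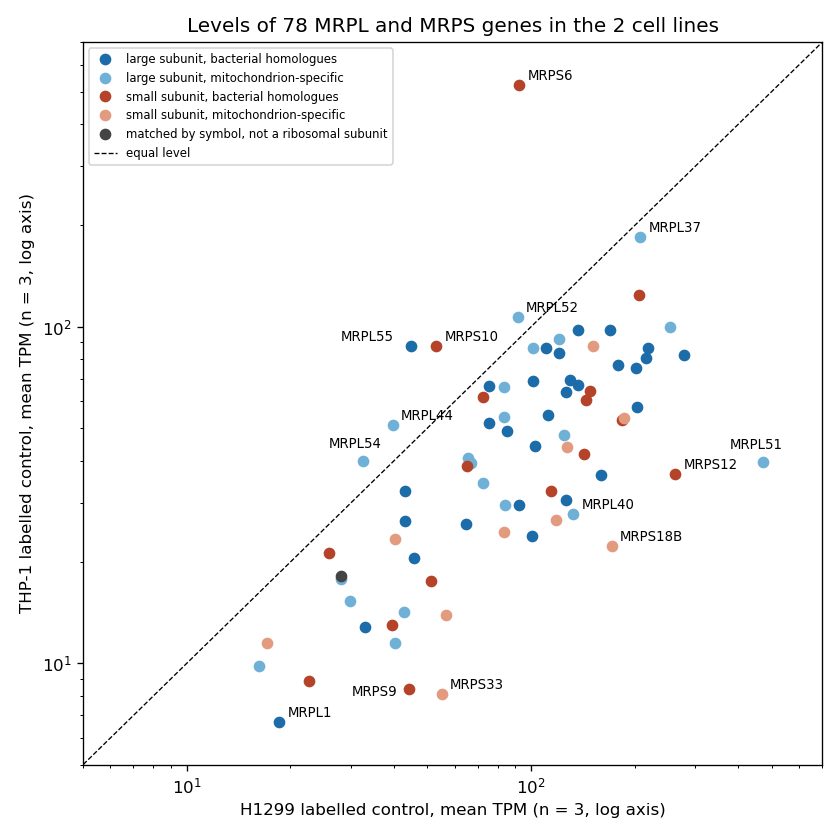
Mean level of each of the 78 genes in THP-1 labelled control (y axis, TPM, log scale, n = 3) against H1299 labelled control (x axis, TPM, log scale, n = 3), coloured by subunit and origin. Most points lie below the dashed line of equal level, MRPL51 farthest below it, and MRPS6 stands at 522 TPM against 92.3 TPM above it.

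In THP-1, the cells kept with labelled DCBLD2 H1299 cells had more mitoribosomal protein mRNA than those kept with labelled control cells. Of the 78 genes, 50 rose (64.1%, where 34.5% of all 13120 genes tested rose) and 8 fell (10.3%, where 33.6% fell), at an adjusted p under 0.05 in edgeR's quasi-likelihood test. In TMM-scaled read counts the 3 libraries of each group did not overlap for 63 of the 78 genes (80.8%), beside 71.0% of all genes tested. The median log2 fold change was 0.26, beside 0.00 over all genes, and none of the 78 changed by 2-fold. Together the 78 genes took 0.255 to 0.256% of reads in labelled control and 0.308 to 0.314% in labelled DCBLD2. Reads of cytosolic ribosomal proteins moved the same way, from 4.01 to 4.04% up to 5.57 to 5.87%; their part in the result was not tested. In bulk RNA, a change in the mix of cells and a change in RNA per cell cannot be told apart.

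The large subunit, which has 51 of the 78 genes, held most of the rises. In THP-1, 34.5% of all genes tested rose and 33.6% fell, and the counts of each class stand beside those shares. Of the 51 large-subunit genes 36 rose and 3 fell (median log2 fold change 0.35). Of the 26 small-subunit genes 13 rose and 5 fell (median 0.19). Among the 30 large-subunit genes with bacterial homologues 24 rose and 0 fell (median 0.42; of the other 6, none had an adjusted p under 0.05). The 21 large-subunit genes added in mitochondria had 12 rises and 3 falls (0.20). The 16 small-subunit genes with bacterial homologues had 10 and 3 (0.25), and the 10 added in mitochondria had 3 and 2 (0.09). Differences between these classes were not tested.

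**Figure D2:**
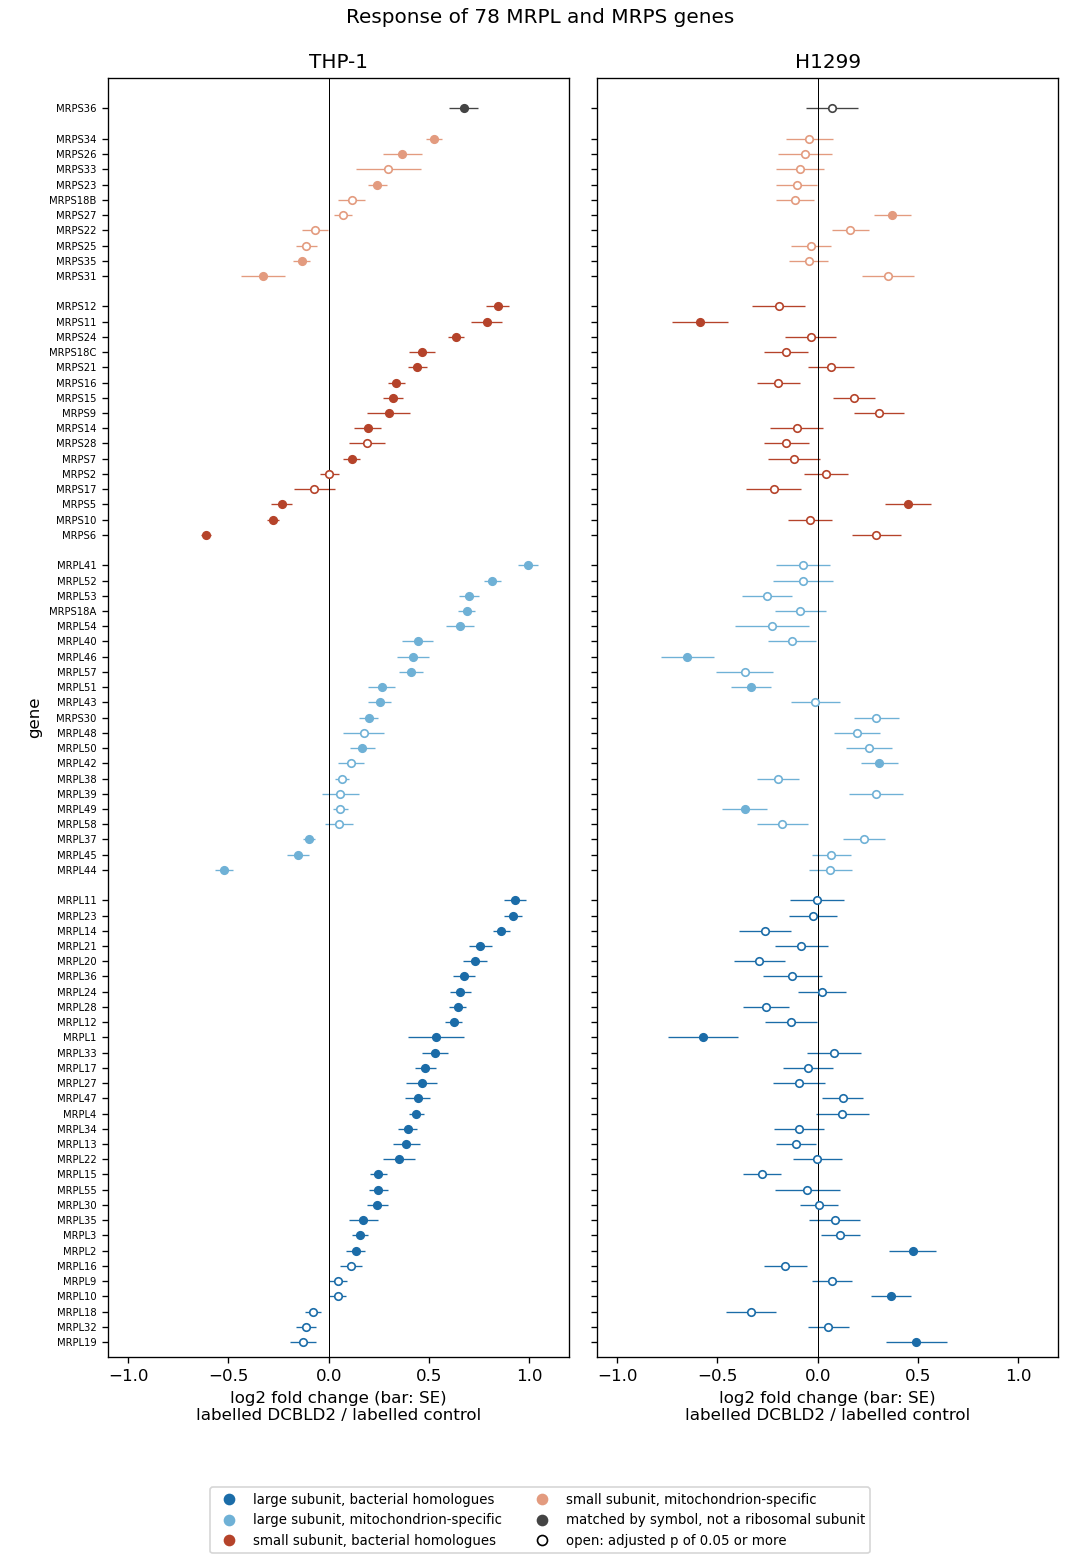
Log2 fold change of each of the 78 genes (x axis, bars are SE), labelled DCBLD2 against labelled control, in THP-1 (left) and H1299 (right), ordered by the THP-1 value within each class. In THP-1 the filled points, which are genes with an adjusted p under 0.05, lie mostly right of 0, with MRPL41 at 0.99 and MRPS6 at -0.61 as the ends; in H1299 most points are open.

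MRPL41, a large-subunit protein added in mitochondria, rose most in THP-1. It had 100, 100 and 98.3 TPM in labelled control and 206, 189 and 184 TPM in labelled DCBLD2. The groups did not overlap, and the log2 fold change was 0.99 ± 0.05 (SE; adjusted p = 1.34e-15, edgeR's quasi-likelihood test). GENCODE places the gene (ENSG00000182154) at 137551199 to 137552555 of chromosome 9, plus strand, on GRCh38.

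MRPL11, which with MRPL10 and MRPL12 forms the stalk that receives translation factors, had 35.7, 33.9 and 39.5 TPM in labelled control and 68.5, 67.5 and 67.5 TPM in labelled DCBLD2. Every labelled DCBLD2 library was above every labelled control library (log2 fold change 0.93 ± 0.05, SE; adjusted p = 7.42e-14, edgeR's quasi-likelihood test). The stalk genes did not move as a unit. MRPL12 rose by 0.62 ± 0.04 (SE) on the log2 scale, from 82.6 ± 1.60 to 124 ± 6.84 TPM (SD, n = 3). MRPL10 stayed at 48.9 ± 2.80 and 48.9 ± 0.866 TPM (SD, n = 3; log2 fold change 0.05 ± 0.04, SE; adjusted p = 0.358, edgeR's quasi-likelihood test), and its groups overlapped.

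MRPL23, whose bacterial homologue lies at the mouth of the exit tunnel, went from 83.7 ± 3.37 TPM up to 155 ± 3.78 TPM (SD, n = 3), a rise of 0.92 ± 0.04 (SE) on the log2 scale. MRPL14, which lies at the contact with the small subunit, went from 69.1 ± 2.23 to 123 ± 3.66 TPM (SD, n = 3; log2 fold change 0.86 ± 0.04, SE). MRPL52 rose by 0.82 ± 0.04 (SE), from 107 ± 4.38 to 182 ± 1.33 TPM (SD, n = 3). For all 3 genes the groups were separate. In the small subunit the largest rise was that of MRPS12, from 38.3, 36.7 and 34.2 TPM to 60.2, 64.9 and 66.4 TPM (log2 fold change 0.84 ± 0.06, SE; adjusted p = 1.31e-12, edgeR's quasi-likelihood test). MRPS12 overlaps exons of SARS2, the mitochondrial seryl-tRNA synthetase gene, on the opposite strand.

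MRPS6, a protein of the small-subunit platform, fell most. Labelled control libraries held 537, 524 and 505 TPM and labelled DCBLD2 libraries 334, 330 and 335 TPM. The groups were wide apart (log2 fold change -0.61 ± 0.02, SE; adjusted p = 2.19e-17, edgeR's quasi-likelihood test). SLC5A3, which shares exon bases with it, also fell, from 40.9 ± 0.973 to 24.2 ± 0.321 TPM (SD, n = 3; log2 fold change -0.72 ± 0.02, SE).

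In the small-subunit sum the fall of MRPS6 offset the other genes. Summed small-subunit TPM was 1502 to 1517 in labelled control and 1509 to 1525 in labelled DCBLD2, so the groups overlapped. Without MRPS6 the sum was 980 to 998 TPM and 1175 to 1190 TPM, and the groups did not overlap. Summed large-subunit TPM went from 2798 to 2807 in labelled control up to 3634 to 3725 in labelled DCBLD2. MRPS6 took 33.6 to 35.4% of the small-subunit sum before and 21.8 to 22.1% after.

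**Figure D3:**
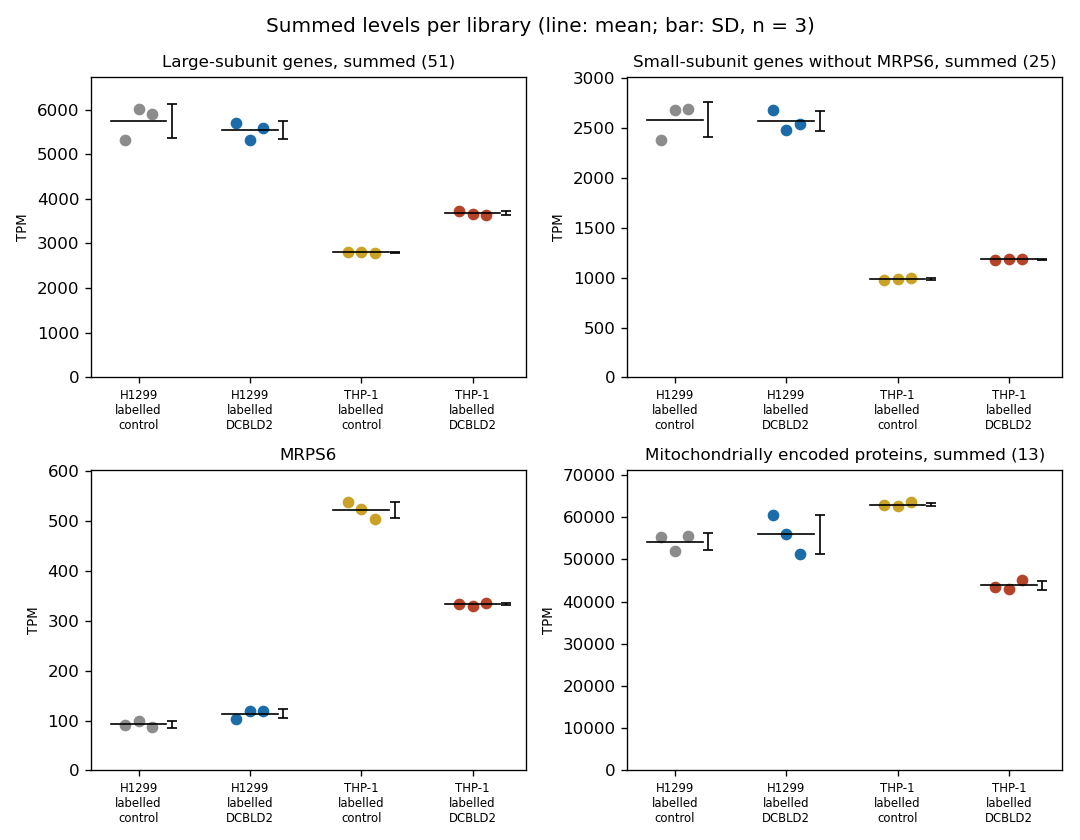
Summed TPM (y axis, from 0) of the large-subunit genes, of the small-subunit genes without MRPS6, of MRPS6 alone and of the 13 mitochondrially encoded proteins in each of the 12 libraries, with mean (line) and SD (bar, n = 3). In THP-1 the large-subunit sum rises from about 2803 to 3677 TPM while MRPS6 falls from 522 to 333 TPM and the mitochondrially encoded sum falls; in H1299 the groups overlap in the 3 sums.

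Of the other 7 falls, MRPL44 was the largest, a large-subunit protein related to ribonuclease III. It had 51.05, 48.9 and 52.8 TPM in labelled control and 34.5, 35.0 and 34.1 TPM in labelled DCBLD2 (log2 fold change -0.52 ± 0.05, SE; adjusted p = 1.39e-10, edgeR's quasi-likelihood test), and its groups did not overlap. MRPS10, a head protein of the small subunit, fell by 0.28 ± 0.03 (SE) on the log2 scale, from 87.7 ± 1.13 to 70.4 ± 1.99 TPM (SD, n = 3), and MRPS5 fell by 0.23 ± 0.05 (SE). MRPL37, among the most abundant of the 78, went from 185 ± 1.56 to 169 ± 10.5 TPM (SD, n = 3; -0.10 ± 0.03, SE). MRPS31 (-0.33) and MRPL45 (-0.15), the latter a protein that faces the inner membrane at the exit tunnel, did not keep their calls in several alternatives. MRPS31 had 9.71 TPM in its lowest labelled control library and 9.49 TPM in its highest labelled DCBLD2 library, overlapped between groups in scaled read counts, and had an adjusted p of 0.0972 without labelled control replicate 3 and 0.0572 without labelled DCBLD2 replicate 3 in edgeR. MRPL45 had adjusted p-values of 0.0812, 0.0522 and 0.0634 in edgeR without labelled control replicate 2, labelled control replicate 3 and labelled DCBLD2 replicate 1, at log2 fold changes of -0.13, -0.14 and -0.13. It was not called with library totals (-0.09) or by DESeq2 (-0.16; adjusted p = 0.0906) either. Of all 58 calls, 49 held when any single library was left out.

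The misplaced and paralogous symbols and MRPL58 had log2 fold changes from 0.05 to 0.69 in THP-1. MRPS36, the dehydrogenase component, rose from 18.2 ± 1.06 to 28.2 ± 1.54 TPM (SD, n = 3; log2 fold change 0.67 ± 0.07, SE; adjusted p = 8.05e-09, edgeR's quasi-likelihood test). In the MRPS18 family, paralogues at different places of the ribosome, MRPS18A rose by 0.69 ± 0.04 (SE) to 104 TPM and MRPS18C by 0.47 ± 0.07 (SE) to 47.3 TPM on the log2 scale. MRPS18B had 22.3 ± 0.528 and 23.6 ± 1.41 TPM (SD, n = 3; log2 fold change 0.11 ± 0.07, SE; adjusted p = 0.129, edgeR's quasi-likelihood test). MRPS30 rose by 0.20 ± 0.05 (SE). MRPL58, which kept the peptidyl-tRNA hydrolase activity of a release factor, had 39.3 ± 1.26 and 39.8 ± 3.82 TPM (SD, n = 3; log2 fold change 0.05 ± 0.07, SE; adjusted p = 0.532, edgeR's quasi-likelihood test).

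**Figure D4:**
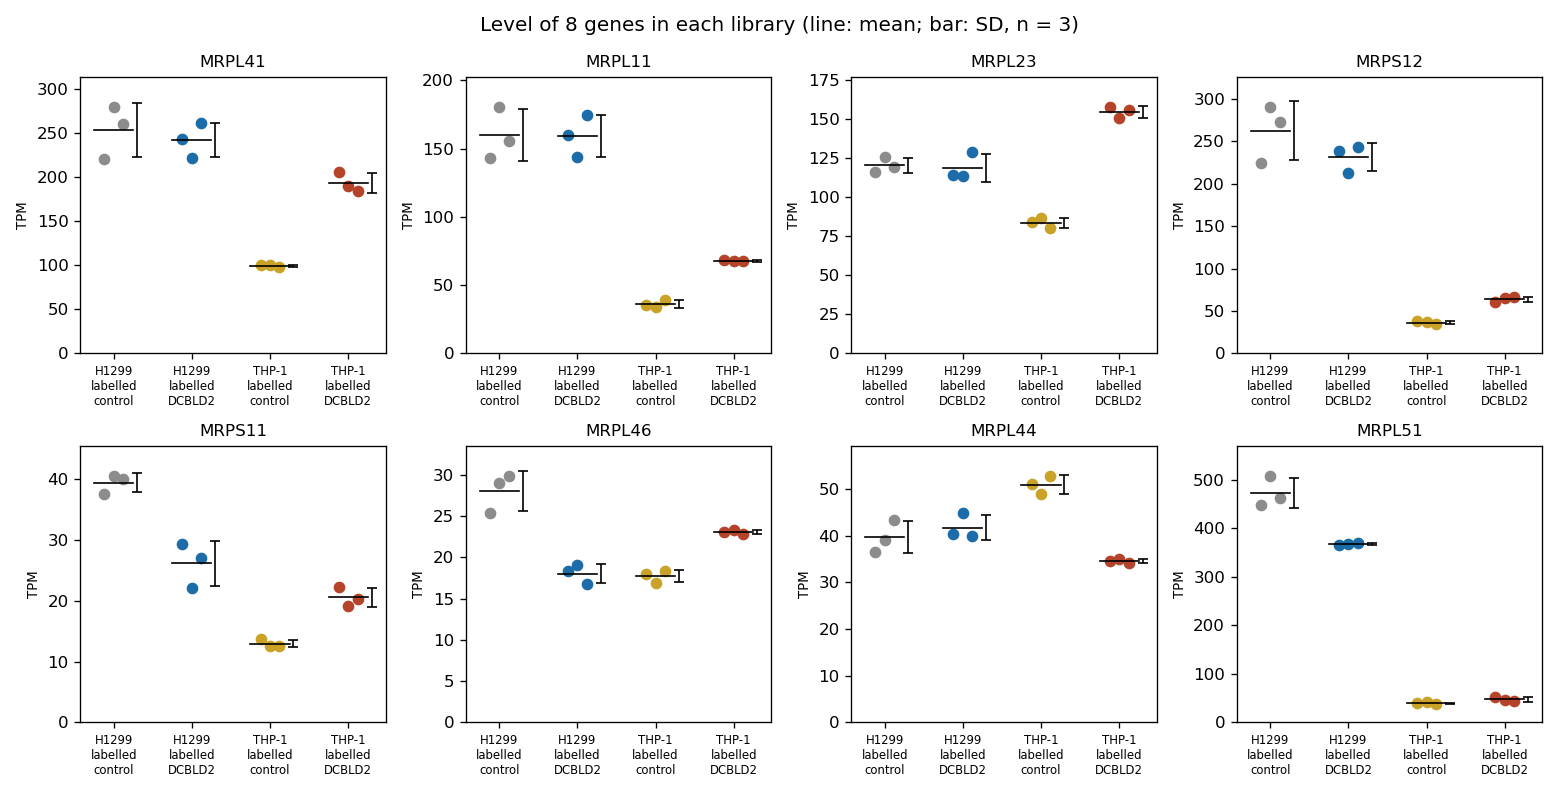
Level (y axis, TPM from 0) of 8 of the genes in each of the 12 libraries, with mean (line) and SD (bar, n = 3). MRPL41, MRPL11, MRPL23 and MRPS12 rise in THP-1 and overlap in H1299, MRPS11 and MRPL46 fall in H1299 and rise in THP-1, MRPL44 falls in THP-1, and MRPL51 is near 473 TPM in H1299 and 39.7 TPM in THP-1 labelled control.

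The mRNAs that these ribosomes translate moved the other way. Of the 13 proteins encoded in mitochondrial DNA, 12 fell in THP-1 and 1 rose, with a median log2 fold change of -0.53. Over all genes tested in THP-1, 33.6% fell and 34.5% rose. MT-ND2, a complex I subunit, fell by 0.92, MT-ND4 of the same complex by 0.66 and the oxidase subunit MT-CO1 by 0.59 on the log2 scale, and MT-ND3 rose by 0.21. Their share of reads was 3.48 to 3.51% in labelled control and 2.46 to 2.58% in labelled DCBLD2. Per summed TPM of the 78 genes, the mitochondrial transcripts stood at 14.5 to 14.7 and at 8.25 to 8.70. In H1299 the same ratio was 5.89 to 7.08 and 6.20 to 7.11, with overlapping groups, and 1 of the 13 genes fell (MT-CO3, -0.36). The libraries were made from enriched mRNA, so mitochondrial transcripts were measured only as far as that step keeps them.

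Over all genes tested in THP-1, 34.5% rose and 33.6% fell, and the counts of this paragraph stand beside those shares. Among the 5 tested mitoribosome proteins with unrelated symbols, 3 rose and 2 fell in THP-1 (median 0.58). GADD45GIP1, a large-subunit protein at the exit tunnel, rose by 0.96 on the log2 scale, from 43.2 to 82.1 TPM, and AURKAIP1 of the small subunit by 0.63. DAP3, the GTP-binding protein of the small-subunit head, fell by 0.42. The other fall by counts, PTCD3 (-0.22), had a higher mean TPM in labelled DCBLD2, 16.6 ± 10.6 against 12.8 ± 3.70 (SD, n = 3), so its direction depends on the unit. Of 18 assembly factors 10 rose and 4 fell (0.24), among them MIEF1 (-0.53), NGRN (-0.43) and the acyl carrier protein NDUFAB1 (0.33). Of 12 genes for modification and maturation of the mitochondrial ribosomal RNA, 0 rose and 8 fell by counts (-0.24), among them METTL17 (-0.50), MTERF4 (-0.42) and RPUSD4 (-0.31). NSUN4, 1 of the 8 (-0.12), had mean TPM values in the other direction, 17.7 ± 1.29 in labelled control and 19.0 ± 1.70 in labelled DCBLD2 (SD, n = 3). The other 4 were not called, with the highest log2 value at 0.25.

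Of 17 translation factors 7 rose and 4 fell (median 0.06), where 34.5% of all genes tested in THP-1 rose and 33.6% fell. The elongation factor TUFM rose by 0.29 and the mRNA-stabilising LRPPRC by 0.30 on the log2 scale, while OXA1L, which inserts the products into the inner membrane, fell by 0.42. Of 10 genes for mitochondrial transcription and genome maintenance 5 rose and 4 fell (0.11), with the DNA-binding protein SSBP1 at 0.58 and the polymerase subunits POLG2 at -0.90 and POLG at -0.22. Of 9 tested regulators of nuclear genes for mitochondria 3 rose and 4 fell (-0.03), with ESRRA at 0.41, PPARGC1B at -0.68 and YY1 at -0.28. Of 13 general mitochondrial proteins, such as import and chaperone proteins, 6 rose and 4 fell (0.03), with PHB1 at 0.35, TIMM44 at 0.44 and HSPE1 at 0.49.

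In H1299 the response was small and uneven. Of the 78 genes 6 rose (7.69%, where 10.3% of all 12773 genes tested rose) and 5 fell (6.41%, where 10.6% fell), and the median log2 fold change was -0.05. The groups did not overlap for 22 genes (28.2%), beside 41.5% of all genes tested. These shares lay below those of all genes. None of the 11 calls held without every single library: 0 genes were called in edgeR without labelled DCBLD2 replicate 2 (13 at an unadjusted p under 0.05) and 2 without labelled DCBLD2 replicate 1. Calls over all genes tested dropped too, from the 10.3% and 10.6% above. With the second library of that group left out, 1.42% were higher and 2.56% lower. Dropping the first one gave 4.32% and 6.31%. The loss of calls was thus not limited to the 78 genes. DESeq2 on all 6 libraries called 6 higher and 5 lower of the 78.

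The rises were MRPL19 (log2 fold change 0.49), MRPL2 (0.47), MRPS5 (0.45), MRPS27 (0.37), MRPL10 (0.37) and MRPL42 (0.31). MRPL2, part of the peptidyl transferase centre, had 69.1, 79.0 and 78.7 TPM in labelled control and 108, 96.5 and 110 TPM in labelled DCBLD2. Its groups did not overlap, with a log2 fold change of 0.47 ± 0.12 (SE; adjusted p = 0.022, edgeR's quasi-likelihood test). MRPS5, whose bacterial homologue guards decoding accuracy, went from 45.2, 57.6 and 50.8 TPM to 69.0, 74.1 and 68.6 TPM (0.45 ± 0.12, SE). MRPS27, an RNA-binding pentatricopeptide protein, went from 83.7 ± 7.05 to 107 ± 8.88 TPM (SD, n = 3; 0.37 ± 0.09, SE).

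The falls were MRPL46 (-0.65), MRPS11 (-0.59), MRPL1 (-0.57), MRPL49 (-0.36) and MRPL51 (-0.33). MRPL1, of the stalk on the other side of the large subunit, had 16.7, 16.4 and 22.5 TPM in labelled control and 14.8, 13 and 10.04 TPM in labelled DCBLD2 (-0.57 ± 0.17, SE; adjusted p = 0.0433, edgeR's quasi-likelihood test). It was among the least abundant of the 78 genes, and its groups lay close together without overlap. MRPL51 went from 473 ± 31.3 to 368 ± 2.27 TPM (SD, n = 3; -0.33 ± 0.10, SE).

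Over all genes tested in H1299, 10.3% rose and 10.6% fell, and the small counts of this paragraph stand beside those shares. Of the companion genes in H1299, 1 of 5 mitoribosome proteins with other symbols rose (PTCD3, 0.49), and of 18 assembly factors 1 rose (NOA1, 0.41) and 4 fell, among them the helicase DDX28 (-1.23) and the GTPase MTG1 (-0.81). For ribosomal RNA modification METTL15 (0.93) rose and MRM2 (-0.55) fell of 12. Of 17 translation factors 4 rose, among them LRPPRC (0.82), MTIF2 (0.80) and GFM2 (0.46), and 1 fell. POLG2 (0.53) and POLG (0.36) rose of 10 genes for transcription and genome maintenance. Of 10 regulators MYC rose (0.54), and of 13 general mitochondrial proteins HSPD1 (0.62), HSPA9 (0.51) and IMMT (0.42) rose.

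The difference between the responses was tested as an interaction over all 12 libraries. That fit uses 1 estimate of spread per gene for both lines, although replicates varied by 13.3% in H1299 and by 1.96% in THP-1. Error from H1299 may thus be understated. For MRPL15 the SE of the difference was 0.0946, below the 0.0948 of its H1299 response alone. Fitting all 12 libraries together also gave 13 higher and 10 lower in H1299, where its own fit gave 6 and 5. Calls over all genes went up too, from 10.3% higher and 10.6% lower to 18.8% and 16.7%. For 36 of the 78 genes the response in THP-1 was more positive than in H1299 (46.2%, beside 19.3% of all 14244 genes tested), and for 9 it was more negative (11.5%, beside 19.5%). The median difference was 0.32 on the log2 scale, beside -0.03 over all genes. With library totals as the scaling, 61.9% of all calls were higher, where TMM gave 49.7%, and 47 of the 78 genes were higher and 5 lower. The largest positive differences belonged to MRPS11 (1.37), MRPL14 (1.11), MRPL1 (1.10), MRPL46 (1.06), MRPL41 (1.06) and MRPS12 (1.03), and the largest negative ones to MRPS6 (-0.92), MRPS31 (-0.70), MRPS5 (-0.69), MRPL19 (-0.63), MRPL44 (-0.60) and MRPL2 (-0.35). The call of MRPL2 was lost in 16 of 23 alternatives.

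Across the 78 genes the responses in the 2 lines ran against each other as a description: Pearson's r was -0.43 and Spearman's rho -0.40, while over 11631 genes tested in both lines r was 0.02. The log2 fold changes had opposite signs for 52 of the 78 genes, beside 5993 of the 11631 genes tested in both lines. Genes are not independent replicates, and all points share the same 12 libraries. Of the 6 genes called in both lines, 5 had opposite directions, a count that was not made over all genes. It rests on H1299 calls, of which 0 held without labelled DCBLD2 replicate 2. MRPS5 rose in H1299 and fell in THP-1, MRPL46, MRPS11, MRPL1 and MRPL51 fell in H1299 and rose in THP-1, and MRPL2 rose in both.

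MRPL46 and MRPS11, a large- and a small-subunit gene, are neighbours that start back to back on chromosome 15. In GENCODE on GRCh38, MRPL46 (ENSG00000259494) runs from 88459476 to 88467419 on the minus strand and MRPS11 (ENSG00000181991) from 88467453 to 88480773 on the plus strand, so 34 bases part their starts. MRPL46 had 25.3, 28.97 and 29.8 TPM in H1299 labelled control, 18.3, 19.0 and 16.7 TPM in H1299 labelled DCBLD2, 18.0, 16.9 and 18.3 TPM in THP-1 labelled control and 23.1, 23.3 and 22.8 TPM in THP-1 labelled DCBLD2. MRPS11 had 37.6, 40.6 and 40.02 TPM, 29.3, 22.2 and 27.1 TPM, 13.7, 12.6 and 12.6 TPM, and 22.3, 19.2 and 20.3 TPM in the same groups. For both genes the groups of either line were separate. MRPL46 fell in H1299 by 0.65 ± 0.13 (SE; adjusted p = 0.0109, edgeR's quasi-likelihood test) and rose in THP-1 by 0.42 ± 0.08 (SE; adjusted p = 5.78e-05). MRPS11 fell in H1299 by 0.59 ± 0.14 (SE; adjusted p = 0.0186, edgeR's quasi-likelihood test) and rose in THP-1 by 0.79 ± 0.08 (SE; adjusted p = 1.24e-09). Without H1299 labelled DCBLD2 replicate 2 the adjusted p in H1299 was 0.0576 for MRPL46 and 0.0907 for MRPS11 in edgeR.

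The stretch between these genes is shown because it holds the GENCODE starts of both, while the RefSeq start of MRPS11 lies outside it. It is read along MRPL46 on the minus strand (chr15:88467359-88467488, 100 bases before to 30 after the RefSeq start of MRPL46, from RefSeq on GRCh38.p14), and the capitals mark the letters AAGATGGC of the YY1-type motif just after the start.
MRPL46: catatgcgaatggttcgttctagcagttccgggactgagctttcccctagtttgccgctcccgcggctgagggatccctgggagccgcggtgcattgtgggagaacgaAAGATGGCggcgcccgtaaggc

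Close starts on opposite strands were frequent among the 78 genes. A coding gene on the other strand starts within 1000 bases, in the opposite direction, for 29 of them (37.2%), beside 12.9% of the 19730 coding genes of the table found in GENCODE. The latter include genes with too few reads to be tested, and no share over tested genes was made. Both shares take the starts in either order. They thus include pairs that overlap at their starts, such as MRPL11 with PELI3, and not only back-to-back pairs. Of the neighbours that are not mitoribosomal genes, 26 were tested in THP-1, of which 6 rose and 9 fell (median log2 fold change -0.00), and of 25 tested in H1299, 0 rose and 1 fell. Over all genes tested, 34.5% rose and 33.6% fell in THP-1, and 10.3% rose and 10.6% fell in H1299. In THP-1, MRPL41 rose by 0.99 and its neighbour PNPLA7 fell by 0.84 on the log2 scale, while MRPL36 rose by 0.67 and its neighbour NDUFS6, a complex I subunit gene, by 0.78.

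Promoter windows of 300 bases, 250 before to 50 after the RefSeq start, were at hand for 69 of the 78 genes. AAGATGGC, the core letters of the site of the zinc-finger factor YY1, was found on either strand in 21 of them (30.4%). It was found in 3.52% of all 27305 genes with a window and in 6.07% of the 11356 tested in H1299 or THP-1. Some genes have more than 1 window, and a match in any of them counts. In 16 of the 21 the match lay within the first 40 bases after the start (23.2% of the 69, beside 3.80% of genes tested). CCGGAAGT, an ETS motif of the GABPA type, was found in 12 (17.4%, beside 9.27% of genes tested), and GCATGCGC, the core of the NRF1 site, in 6 (8.70%, beside 6.16%). The E-box CACGTG was in 9 (13.04%, beside 12.5%), the GC box GGGCGG in 42 (60.9%, beside 75.9%) and the TATA box TATAAA in 3 (4.35%, beside 8.94%). A match is a description of letters and not a bound site.

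In THP-1, genes with the YY1-type match had a median log2 fold change of 0.20, with 13 of 21 higher. Those without it had 0.30, with 30 of 48 higher. Of all 78 genes 64.1% were higher, beside 34.5% of all genes tested in THP-1. The split by match was not made over all genes. Windows of 6 genes are shown, each 100 bases before to 30 after the RefSeq start (RefSeq, GRCh38.p14), with matches to AAGATGGC, CCGGAAGT or GCATGCGC on either strand in capitals. MRPL41 (chr9:137551779-137551908, plus strand), with the largest rise, and MRPS6 (chr21:34073478-34073607, plus strand), with the largest fall, hold none of these matches in the stretch shown. MRPL52 (chr14:22829787-22829916, plus strand) holds YY1-type matches before its start and an ETS match, MRPL20 (chr1:1407264-1407393, minus strand) an ETS match before and a YY1-type match after the start. MRPS18A (chr6:43687762-43687891, minus strand) and MRPS24 (chr7:43869488-43869617, minus strand) show the usual place of the YY1-type match, in the first bases transcribed.
MRPL41: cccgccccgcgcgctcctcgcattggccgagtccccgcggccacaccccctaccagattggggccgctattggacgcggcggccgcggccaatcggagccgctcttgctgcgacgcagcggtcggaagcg
MRPS6: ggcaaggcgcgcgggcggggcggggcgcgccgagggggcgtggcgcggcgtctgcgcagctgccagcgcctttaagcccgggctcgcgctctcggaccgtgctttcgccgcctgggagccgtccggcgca
MRPL52: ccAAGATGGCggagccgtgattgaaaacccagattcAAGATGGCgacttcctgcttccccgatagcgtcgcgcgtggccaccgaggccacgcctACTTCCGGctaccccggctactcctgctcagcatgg
MRPL20: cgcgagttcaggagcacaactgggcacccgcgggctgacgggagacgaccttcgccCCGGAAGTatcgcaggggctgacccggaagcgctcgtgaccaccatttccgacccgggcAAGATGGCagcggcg
MRPS18A: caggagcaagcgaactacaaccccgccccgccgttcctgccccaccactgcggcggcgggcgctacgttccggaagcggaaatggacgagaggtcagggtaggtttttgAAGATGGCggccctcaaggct
MRPS24: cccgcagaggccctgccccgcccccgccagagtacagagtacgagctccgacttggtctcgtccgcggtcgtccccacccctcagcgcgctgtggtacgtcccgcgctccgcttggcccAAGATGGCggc

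Most of the 78 genes make short mRNAs, and the THP-1 response ran with length. Across the genes, Spearman's rho between the log2 fold change in THP-1 and the median length of a gene's coding transcripts was -0.33, beside -0.13 over 12935 genes tested with a length. For transcripts of up to 800 bases the median log2 fold change was 0.47 in 21 of the genes, of which 16 rose and 0 fell, and 0.11 in all genes of that length, of which 44.7% rose and 29.3% fell. Over 800 to 1200 bases it was 0.25 in 26 of the genes and 0.10 in all, and over 1200 to 2000 bases 0.11 in 25 and 0.00 in all. The 6 genes over 2000 bases had a median of 0.27, with 5 rises and 1 fall, beside -0.06 in all, of which 28.6% rose and 38.9% fell. Within each length range the median of the 78 genes was thus above that of all genes, and the part of length in the result was not tested further.

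**Figure D5:**
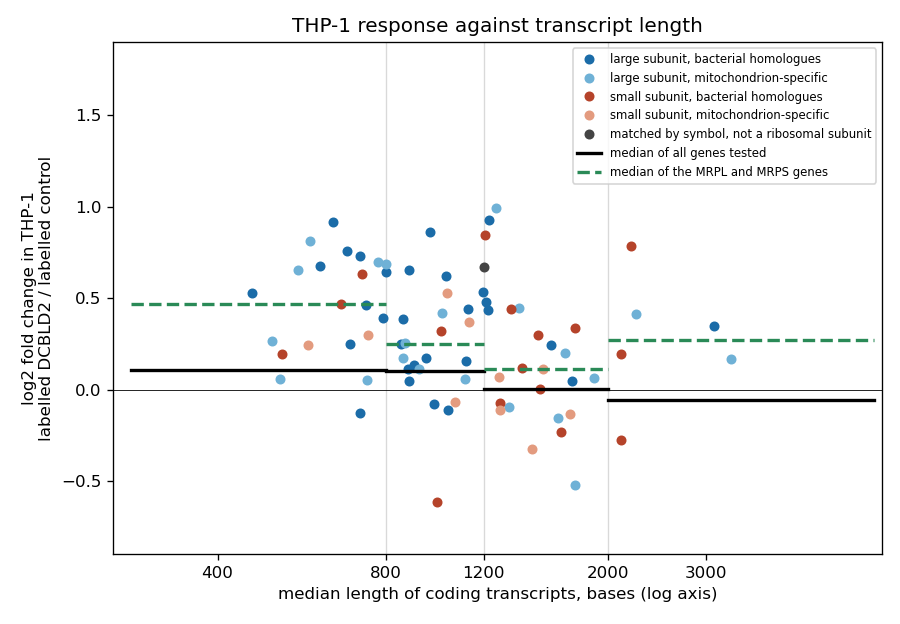
Log2 fold change in THP-1 (y axis) against the median length of a gene's coding transcripts (x axis, bases, log scale) for the 78 genes, with the medians of all genes tested (solid lines) and of the 78 genes (dashed lines) in 4 ranges of length. The dashed line lies above the solid line in each range, at 0.47 against 0.11 for the shortest.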

How the data were processed

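Trizol RNA was enriched for mRNA, fragmented and prepared with a NEBNext Ultra kit, per the labels' protocols. The submitters' processing notes name RSEM, HISAT2, StringTie 1.3.1, Bowtie2 2.2.8 and fastp 0.18.0 and the build hg38, and no annotation release is given in the sources used here. The authors deposited, in 1 table, TPM and estimated counts per gene for each library, the counts not normalized.

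The estimated counts were rounded, filtered with filterByExpr (minimum of 10 counts), scaled by TMM and fitted in edgeR 4.0.16 under R 4.3.3 (quasi-likelihood test). The responses of H1299 and THP-1 were fitted on 6 libraries each; the difference between responses and the contrast of control groups were fitted on all 12. Benjamini-Hochberg adjustment ran over all genes tested; an adjusted p under 0.05 counts as a call. Levels are TPM means ± SD, and fold changes are log2 ± SE. Steps were tested on simulated data.

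Genes and lists were chosen with earlier results of these data known. Named genes are, per comparison, the 6 largest called rises and falls, the 6 highest and 6 lowest levels, the MRPS18 family, MRPS30, MRPS36, MRPL58, the stalk genes, and up to 3 called genes of each other list; MRPL20, SLC5A3, PNPLA7, MRPL36, NDUFS6, PTCD3, NSUN4 and MT-ND3 were named after their values were seen. Positions come from GENCODE release 29 on GRCh38 and promoters from RefSeq on GRCh38.p14. Alternatives were DESeq2 1.42.0, its size factors, upper-quartile scaling, library totals, other filters, limma 3.58.1 on log2(TPM + 1) and log2(TPM + 0.1), a robust fit, sample weights, a replicate block, all 12 libraries in one fit, the common spread of H1299, and leaving out each library.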

Additional observations from a re-analysis of the deposited data

Results flagged for a closer look

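The responses of the mitoribosomal genes differed between the lines by the interaction test of edgeR's quasi-likelihood fit over 12 libraries. A more positive response in THP-1 than in H1299 was called for 36 of 78 genes (46.2%) and a more negative one for 9 (11.5%). Over all 14244 genes tested the shares were 19.3% and 19.5%. The interaction fit shares 1 spread estimate per gene between both lines, so error from H1299 may be understated. The largest positive log2 differences of response were those of MRPS11 (1.37), MRPL14 (1.11), MRPL1 (1.10), MRPL46 (1.06), MRPL41 (1.06) and MRPS12 (1.03). The largest negative ones were those of MRPS6 (-0.92), MRPS31 (-0.70), MRPS5 (-0.69), MRPL19 (-0.63), MRPL44 (-0.60) and MRPL2 (-0.35). The difference for MRPL2 had an adjusted p of 0.0445, and its call was lost in 16 of 23 alternatives, among them DESeq2, 3 other scalings and most left-out libraries, with adjusted p-values from 0.0527 to 0.241.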

How the results depend on the processing

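In H1299 the counts of higher and lower genes went to 2 and 2 with a replicate block and to 13 and 10 with all 12 libraries in one fit; leaving out each library gave 0 to 6 and 0 to 6. Replicate numbers did not pair the samples: same-numbered deviations correlated at -0.12, -0.28 and -0.27 in H1299 and at 0.03, 0.05 and 0.06 in THP-1, and not every library correlated best with its own number. The block gave 50 and 9 calls in THP-1, 33 and 8 for the difference of responses and 6 and 61 between lines. In THP-1 the lower count was 5 with library totals, 5 with DESeq2 and 3 with all 12 libraries in one fit. The common spread of H1299 gave 31 higher and 2 lower, and over all genes 18.0% higher and 16.6% lower. Leaving out each library gave 48 to 50 and 7 to 9. For the difference the lower count was 5 with library totals, and leaving out each library gave 31 to 49 higher and 5 to 9 lower. Between lines it gave 6 to 8 and 57 to 63. Sign changes were MRPS18A in H1299 (0.0028 without labelled DCBLD2 replicate 2; left-out libraries gave -0.184 to 0.0028), MRPS18C in H1299 (0.071 and 0.072 with limma on TPM), MRPS36 in H1299 (-0.0111 without labelled control replicate 1; range -0.0111 to 0.146), MRPL11 in H1299 (0.108 without labelled control replicate 2, 0.0966 without labelled DCBLD2 replicate 2, 0.006 in one fit of 12; range -0.0957 to 0.108), MRPL58 in THP-1 (-0.0129 without labelled DCBLD2 replicate 3; range -0.0129 to 0.103) and MRPL52 between lines (-0.0643 with library totals). None of these was called in the setting named. Of the other values of named genes, 1132 kept direction and call, 90 lost and 4 gained a call. The causes were not tested. The spread between replicates limits H1299, and pseudogene copies of 34 genes and shared exons limit single counts.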
